A study of Mus musculus with 6 samples.

Results

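Chemokines and their receptors were examined in the colon mucosa of mice that lack microRNA-21 (miR-21 KO) and of wild type (WT) mice. The members are the probes whose gene symbol in the deposited bead array table starts with Ccl, Cxcl, Xcl, Cx3cl, Ccr, Cxcr, Xcr or Cx3cr followed by a digit. The rule found 67 of 25697 probes, for 35 ligand symbols and 18 receptor symbols. Of these, 40 probes for 23 ligands and 7 receptors were detected on at least 3 of the 6 arrays and entered the test.

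Total RNA was hybridised with 1 sample per array, from 3 samples of miR-21 KO mice and 3 samples of WT mice. The miR-21 KO mice carry the deletion on a C57BL/6 background, came from another laboratory and are described as free of spontaneous colitis. The WT mice are C57BL/6 from Taconic. No group received a treatment by the labels, which give no age and do not say how many animals lie behind a sample. Genotype and source of the mice cannot be told apart in any comparison here. The p-values cover only how these samples vary, which may be technical in part. Colon epithelial markers were present in both groups: Krt8, Krt20, Lgals4, Vil1, Cdx1 and Cdx2 were detected on all 6 arrays, while Slc26a3 was detected on 2 of 3 arrays in each group; Epcam, Car1 and Muc2 were not analysed here.

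Chemokines are small secreted proteins that guide leukocytes along gradients by binding G protein-coupled receptors. Homeostatic chemokines such as Cxcl13, Ccl19 and Ccl21 place B cells and T cells inside lymphoid tissue. Others, such as Ccl5, Cxcl9 and Cxcl10, are induced during inflammation, and epithelial chemokines of the gut draw antibody-secreting cells and intraepithelial lymphocytes to the mucosa.

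No probe of the deleted microRNA was analysed here, so the genotype labels were not checked on the arrays. Its mature sequence, shown because it is what the KO mice lack, is taken from RefSeq (GRCm38.p6, chr11:86584120-86584141, minus strand), with the seed of bases 2 to 8 in capitals.
mmu-miR-21a-5p: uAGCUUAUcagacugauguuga

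Of the 40 tested member probes, 9 fell in miR-21 KO, for 9 genes, and 4 rose, for 4 genes, by limma at an adjusted p under 0.05. That is 22.5 percent lower and 10 percent higher, beside 7.55 percent lower and 7.53 percent higher among all 13737 tested probes. Cxcr5, Cxcl9, Ccl5, Ccl28, Cxcl16, Cxcl10, Cx3cl1 and Ccl9 were 8 of the 9 lower genes. Cxcl12, Cxcr7, Cxcl14 and Ccl27 were the 4 higher genes. Of these, Cxcr7 entered the test through its miR-21 KO arrays alone, which favours a higher level in that group, so its call is not independent of the filter. The median log2 difference (miR-21 KO minus WT) was -0.55 over the tested member probes and 0.03 over all tested probes. All miR-21 KO arrays lay below all WT arrays for 16 of the 40 probes (17 percent of all tested probes) and above them for 8 (19.4 percent of all). Among the 31 member probes detected on all 6 arrays, 8 fell and 3 rose. In a fit of only the 11436 probes detected on all 6 arrays, 9 members fell and 3 rose. Over all probes of that fit, 1018 fell and 997 rose. The number of members lower was 6 without miR-21 KO replicate 1 and 4 without miR-21 KO replicate 2. It was 5 without WT replicate 1, 5 without WT replicate 3 and 17 without WT replicate 2. Over all tested probes, 458, 242, 486, 473 and 1063 were lower in the same order, beside 1037 in the main fit. The number of members higher was 2, 1 and 2 without miR-21 KO replicates 1, 2 and 3. It was 1 without WT replicate 1 and 2 without WT replicate 3. Over all tested probes, 462, 218, 814, 409 and 429 were higher in the same order, beside 1034 in the main fit. With median scaling of the arrays in place of quantile normalization, 6 members fell and 0 rose by limma (6 were higher at an unadjusted p under 0.05), and over all probes 193 rose and 343 fell, where the main scaling had 1034 and 1037.

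**Figure D1:**
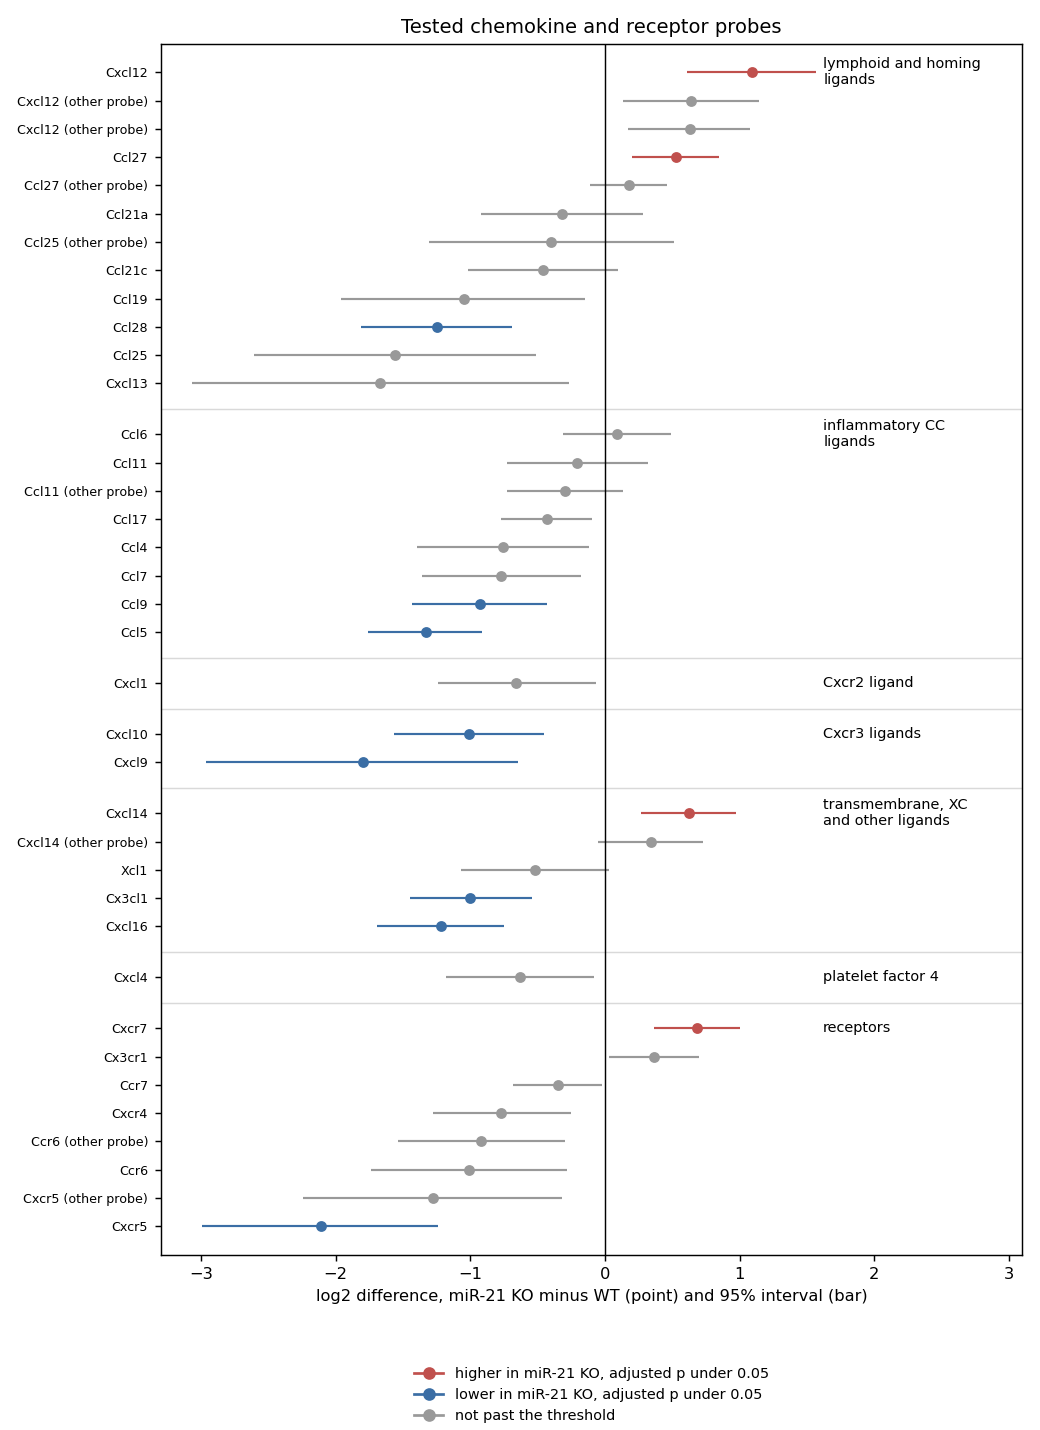
Log2 difference, miR-21 KO minus WT, of 37 of the 40 tested member probes (points, with 95% intervals as bars) grouped by role; red probes rose and blue probes fell at an adjusted p under 0.05. Most points lie left of 0, and the red points are Cxcl12, Ccl27, Cxcl14 and Cxcr7.

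Levels below are normalized log2 intensities, on which member probes that were detected on no array read between 4.14 and 4.51. In bulk mucosa, fewer cells of a type and less RNA per cell cannot be told apart.

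The follicle receptor Cxcr5, found on B cells and follicular helper T cells, was the member with the largest change. Its main probe read 4.34, 4.57 and 4.55 in miR-21 KO samples, against 7.66, 5.78 and 6.36 in WT samples. The groups did not overlap, and the miR-21 KO values sat at the edge of detection, with 2 of 3 arrays detecting the probe. Cxcr5 was 4.32-fold lower in miR-21 KO (-2.11 ± 0.39 on the log2 scale with its SE, 3 arrays a group, adjusted p = 0.0121 by limma). This call was kept whichever array was left out. It was lost with no background correction, with no filter on dim probes (adjusted p = 0.054) and on the 4 brighter arrays (adjusted p = 0.0608 by limma). Those 4 arrays leave out replicate 3 of each group. A second tested Cxcr5 probe had -1.28 ± 0.43 (adjusted p = 0.0723, and 0.00805 without WT replicate 2). Its difference ran from -1.81 to -0.74 when 1 array was left out. The last Cxcr5 probe was detected on 1 array, of WT replicate 1.

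Cxcl13, the follicular ligand of Cxcr5, did not pass the threshold. It read 7.55, 7.33 and 8.20 in miR-21 KO samples, against 10.60, 7.63 and 9.85 in WT samples. WT replicates 1 and 3 lay far above every miR-21 KO array, and WT replicate 2 lay among them. The log2 difference was -1.67 ± 0.62 (adjusted p = 0.0994), and with 1 WT replicate left out it was -1.05 without replicate 1, -2.53 without replicate 2 and -1.42 without replicate 3 (adjusted p = 0.264, 0.00298 and 0.249).

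The T zone chemokines and their receptor Ccr7 did not pass either. Ccl19, which holds T cells and dendritic cells in the T zone, read 4.38, 4.60 and 4.45 in miR-21 KO samples, against 6.39, 4.43 and 5.77 in WT samples. Ccl19 was detected on 1 of 3 miR-21 KO arrays and 2 of 3 WT arrays, so its miR-21 KO values and WT replicate 2 lie near background. As for Cxcl13, WT replicate 2 read like the miR-21 KO arrays, and the log2 difference was -1.05 ± 0.40 (adjusted p = 0.104 by limma). It was -1.60 without WT replicate 2 (adjusted p = 0.00398) and -0.63 without WT replicate 1 (adjusted p = 0.272). The probes named Ccl21a and Ccl21c, which may share signal because mouse Ccl21 genes are near-identical copies, had differences of -0.32 ± 0.27 and -0.46 ± 0.25 (adjusted p = 0.44 and 0.231). Ccr7 was detected on 1 of 3 miR-21 KO arrays and on 3 of 3 WT arrays. It read 4.37, 4.40 and 4.72 in miR-21 KO samples, against 4.88, 4.85 and 4.82 in WT samples, a difference of -0.35 ± 0.15 (adjusted p = 0.131) with no overlap.

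Ccr6, a receptor of B cells and type 17 T cells, read 6.00, 5.68 and 5.77 in miR-21 KO samples, against 7.69, 6.20 and 6.59 in WT samples. The groups did not overlap, yet its probes missed the threshold at -1.01 ± 0.32 (adjusted p = 0.0649, and 0.022 without WT replicate 2) and -0.92 ± 0.27 (adjusted p = 0.0519, and 0.021 without WT replicate 2). Without WT replicate 1 they were -0.58 and -0.57 (adjusted p = 0.095 and 0.0916). Its ligand Ccl20, a product of the epithelium over lymphoid follicles, was detected on 0 of 6 arrays.

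Beside these genes, all tested B cell markers and 3 of 5 tested T cell markers fell. The mean of 5 tested B cell markers read 5.08, 5.08 and 5.21 in miR-21 KO samples, against 8.12, 6.47 and 7.03 in WT samples, with WT replicate 1 highest and WT replicate 2 lowest among the WT arrays, the same order as Cxcr5, Cxcl13 and Ccl19. All 5 fell, Cd79b, Blk, Fcmr and Cd22 among them. Cd22 was detected on 0 of 3 miR-21 KO arrays, so it passed the filter through WT alone, and Blk was detected on 1 of 3, while Ms4a1 was detected on 2 WT arrays and Pax5 on 1 miR-21 KO array. The mean of 5 tested T cell markers read 5.34, 5.14 and 5.73 in miR-21 KO samples, against 6.95, 5.82 and 6.33 in WT samples, and Cd3d, Cd3g and Lck fell, while Cd3e and Cd2 did not pass (-0.28 ± 0.21 and -0.61 ± 0.26, adjusted p = 0.39 and 0.143). Cd8a was detected on 0 arrays. The part of lymphocyte content in the chemokine and receptor differences was not tested.

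**Figure D2:**
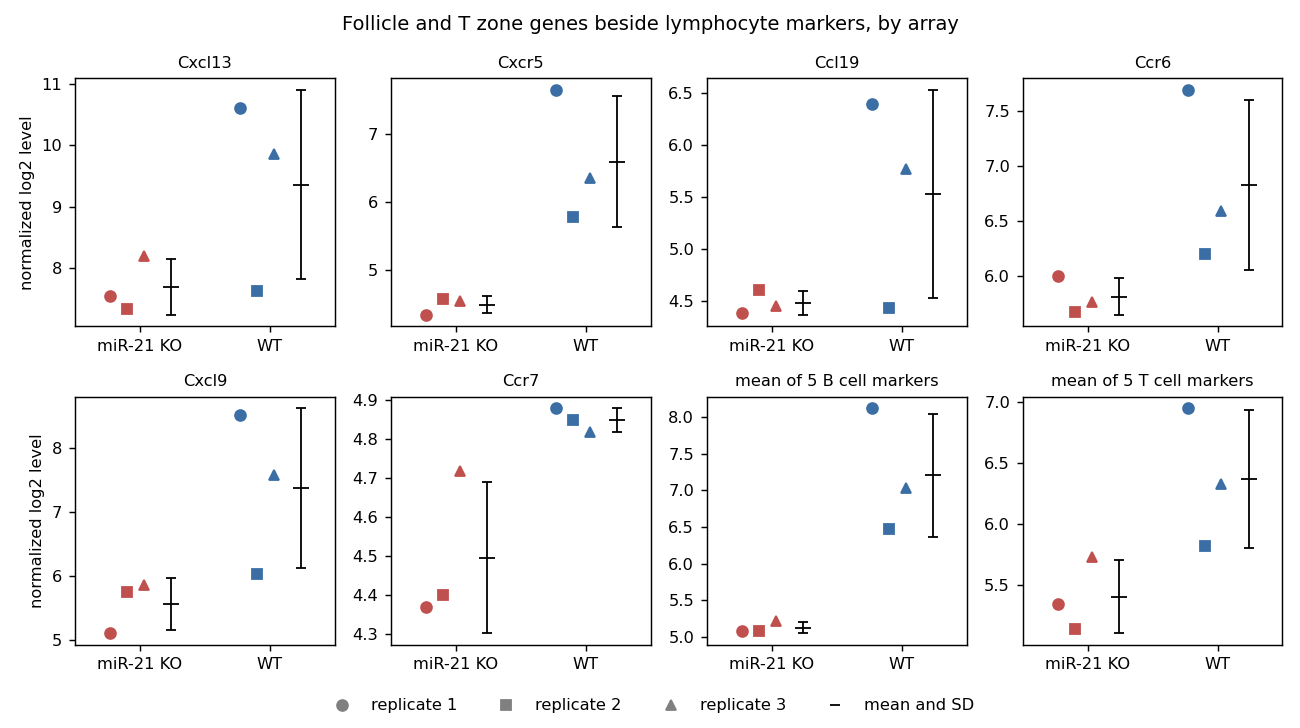
Normalized log2 level of follicle and T zone genes and of the Cxcr3 ligand Cxcl9 on each array, beside the mean of 5 B cell and of 5 T cell markers. miR-21 KO lies left of WT, symbols mark the replicates and bars give mean and SD (n = 3 each). WT replicate 2 (square) is the lowest WT array for Cxcl13, Cxcr5, Ccl19, Ccr6, Cxcl9 and both marker means, while WT replicate 3 is the lowest for Ccr7.

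Cxcl12 rose on its main probe. Cxcl12, a stromal and endothelial chemokine, read 8.07, 7.84 and 8.20 in miR-21 KO samples, against 6.97, 7.35 and 6.52 in WT samples. Every miR-21 KO array lay above every WT array, and Cxcl12 was 2.13-fold higher (log2 difference 1.09 ± 0.21, adjusted p = 0.0141). Leaving out any array kept this call, which was lost with median scaling and on the 4 brighter arrays (adjusted p = 0.0606 and 0.0604). Cxcl12 has 2 other tested probes, at 0.63 ± 0.20 and 0.64 ± 0.22 (adjusted p = 0.0655 and 0.0846), also without overlap, and 2 probes detected on 0 arrays.

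Cxcr7, now named Ackr3, is an atypical receptor that takes up and clears Cxcl12. It was detected on 3 of 3 miR-21 KO arrays, with levels of 4.98, 4.98 and 5.02, and on 0 of 3 WT arrays, with measured values of 4.16, 4.49 and 4.28. The miR-21 KO level was at least 1.3-fold higher than a WT bound, which was itself not tested. The bound takes on each WT array the higher of the probe's own value and the lowest value of any detected probe. The limma test was on the measured values (0.68 ± 0.14, adjusted p = 0.0166). This probe entered the test through its miR-21 KO arrays alone, and its call was lost without miR-21 KO replicate 2 or WT replicate 1 (adjusted p = 0.0704 at most), as well as with median scaling, no background correction or a larger offset and on the 4 brighter arrays. Cxcr4, the signalling receptor of Cxcl12 on leukocytes, lay on the other side. It read 6.29, 6.15 and 6.03 in miR-21 KO samples, against 7.35, 6.39 and 7.03 in WT samples, without overlap. Its difference of -0.77 ± 0.23 fell just short of the threshold (adjusted p = 0.0519), with -1.03 without WT replicate 2 (adjusted p = 0.00886) and -0.55 without WT replicate 1 (adjusted p = 0.145).

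Beside Cxcl12 and Cxcr7, 3 of 5 tested blood endothelial markers and 1 of 5 smooth muscle markers rose. The mean of 5 tested blood endothelial markers read 5.96, 6.26 and 6.40 in miR-21 KO samples, against 5.48, 5.63 and 5.38 in WT samples, and Pecam1, Eng and Cldn5 rose. Vwf and Cdh5 did not pass (0.90 ± 0.30 and 0.07 ± 0.14, adjusted p = 0.0709 and 0.756), and Kdr was detected on 0 arrays. Smooth muscle markers averaged 11.11, 11.22 and 10.75 in miR-21 KO samples, against 9.83, 10.69 and 10.35 in WT samples. Of 5 tested, 1 rose (Cnn1), and all 5 were higher at an unadjusted p under 0.05 by limma. Fibroblast markers averaged 9.72, 9.81 and 9.72 in miR-21 KO samples, against 9.14, 9.75 and 9.41 in WT samples, and 1 of 6 rose (Col1a2). Adipocyte markers averaged 7.75, 7.48 and 9.14 in miR-21 KO samples, against 6.68, 5.41 and 4.55 in WT samples; all 3 tested rose (Adipoq, Cidec and Lep), and Fabp4 was detected on 0 arrays. The part of these tissues in the Cxcl12 and Cxcr7 differences was not tested.

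Among chemokines that home lymphocytes to epithelia, Ccl28 fell, Ccl27 rose and Ccl25 did not pass. Ccl28, which draws IgA plasma cells to mucosae through Ccr10, read 6.94, 6.65 and 7.31 in miR-21 KO samples, against 8.11, 7.82 and 8.72 in WT samples. All miR-21 KO arrays were below all WT arrays, a 2.38-fold lower level (-1.25 ± 0.25, adjusted p = 0.0147). Without miR-21 KO replicate 2 or with no filter on dim probes it missed the threshold (adjusted p = 0.0633 and 0.0535). Ccl27, a skin chemokine that also binds Ccr10, read 7.79, 7.72 and 7.78 in miR-21 KO samples, against 7.09, 7.46 and 7.16 in WT samples. This was a 1.44-fold rise (0.53 ± 0.15, adjusted p = 0.0416), lost when any array other than WT replicate 2 was left out (adjusted p = 0.0756 to 0.127), with median scaling and on the 4 brighter arrays. The other Ccl27 probe had 0.18 ± 0.13 (adjusted p = 0.363). The symbol Ccl27 now stands for Ccl27a, and reads from its near-identical copy Ccl27b could add to these probes.

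Ccl25, which attracts Ccr9-bearing gut lymphocytes and is made mainly in small intestine and thymus, gave differing probes. The brighter probe read 6.69, 6.07 and 4.74 in miR-21 KO samples, against 8.03, 6.75 and 7.39 in WT samples (-1.56 ± 0.47, adjusted p = 0.0528). It passed without miR-21 KO replicate 1 or WT replicate 2 (adjusted p = 0.0372 at most by limma). Its difference ran from -1.98 to -1.01 when 1 array was left out. The other probe read 5.56, 5.94 and 6.88 in miR-21 KO samples, against 7.09, 5.67 and 6.81 in WT samples, a difference of -0.40 ± 0.40 (adjusted p = 0.531). miR-21 KO replicate 3 was the lowest KO array on the brighter probe and the highest on the other. The receptors of these ligands were barely measured, with Ccr10 detected on 2 of 6 arrays and Ccr9 on 1. Plasma cell markers did not differ past the threshold for any of 5 tested (0 by limma, also 0 at an unadjusted p under 0.05). Their means were 7.47, 7.43 and 7.69 in miR-21 KO samples, against 7.49, 7.16 and 7.34 in WT samples. The list is limited, as Jchain read near background (mean 4.95 in miR-21 KO and 4.96 in WT). Derl3 was detected on 3 miR-21 KO and 0 WT arrays, and Prdm1 on 0 arrays.

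The transmembrane chemokines Cxcl16 and Cx3cl1, which can hold leukocytes at the cell surface or be shed, both fell. Cxcl16 read 7.77, 7.70 and 8.04 in miR-21 KO samples, against 8.94, 8.73 and 9.50 in WT samples, 2.33-fold lower (-1.22 ± 0.21, adjusted p = 0.0094). Cx3cl1, or fractalkine, read 7.70, 7.61 and 7.11 in miR-21 KO samples, against 8.28, 8.36 and 8.77 in WT samples, 1.99-fold lower (-1.0 ± 0.20, adjusted p = 0.0153). Neither gene overlapped between groups. The Cxcl16 call was kept in all 17 alternatives, as was that of Ccl5 alone among the other called probes, and the Cx3cl1 call was lost without miR-21 KO replicate 2 (adjusted p = 0.0507), with median scaling (adjusted p = 0.064) and on the 4 brighter arrays (adjusted p = 0.0535). Cx3cr1, the fractalkine receptor of monocytes and macrophages, read 6.03, 6.18 and 6.10 in miR-21 KO samples, against 5.69, 5.58 and 5.96 in WT samples. Its difference of 0.36 ± 0.15 did not pass (adjusted p = 0.126). Cxcr6, the receptor of Cxcl16 on T and NK cells, was detected on 0 arrays.

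Set beside Ccl28, Cxcl16 and Cx3cl1, whose source cells bulk mucosa does not show, epithelial markers were lower for 2 of 7 tested. Vil1 had -1.15 ± 0.17 (adjusted p = 0.00646) and Krt20 had -0.63 ± 0.13 (adjusted p = 0.0159), while Krt8 and Lgals4 differed by 0.07 ± 0.14 and 0.00 ± 0.13. The mean of the list read 10.49, 10.30 and 10.29 in miR-21 KO samples, against 10.62, 10.62 and 10.52 in WT samples. Whether epithelial content has a part in the Ccl28, Cxcl16 and Cx3cl1 differences was not tested.

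Other ligands of this group moved less. Cxcl14, an epithelial and stromal chemokine, read 6.30, 6.17 and 6.36 in miR-21 KO samples, against 5.40, 5.78 and 5.78 in WT samples, 1.54-fold higher (0.62 ± 0.15, adjusted p = 0.0292). This call was lost when any array other than WT replicate 2 was left out (adjusted p = 0.0544 to 0.0892), with median scaling and on the 4 brighter arrays. The other Cxcl14 probe had 0.34 ± 0.17 (adjusted p = 0.21). Xcl1, a product of NK and T cells that attracts cross-presenting dendritic cells, was detected on 1 of 3 miR-21 KO arrays and 2 of 3 WT arrays (-0.52 ± 0.25, adjusted p = 0.176, with 0.017 without WT replicate 2 and 0.443 without WT replicate 3). Its receptor Xcr1 was detected on 0 arrays.

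The interferon-induced ligands of Cxcr3, which recruit type 1 T cells and NK cells, were lower in miR-21 KO. Cxcl9 read 5.10, 5.74 and 5.85 in miR-21 KO samples, against 8.50, 6.03 and 7.57 in WT samples. The groups did not overlap, but WT replicate 2 lay just above the highest miR-21 KO array, and the SD was 0.41 in miR-21 KO and 1.25 in WT. Cxcl9 was 3.49-fold lower (-1.80 ± 0.51, adjusted p = 0.0447), a call lost when any array other than WT replicate 2 was left out (adjusted p = 0.0689 to 0.127). The difference was -2.47 without WT replicate 2 and -1.24 without WT replicate 1. The call was also lost with no background correction (-1.01, adjusted p = 0.11), an offset of 50, no filter on dim probes, a trended and robust eBayes (adjusted p = 0.0882) and on the 4 brighter arrays. Cxcl10 read 4.85, 4.78 and 4.82 in miR-21 KO samples, against 6.22, 5.19 and 6.09 in WT samples, 2.02-fold lower (-1.01 ± 0.25, adjusted p = 0.028). WT replicate 2 was again the lowest WT array, and the call was likewise lost without any array but WT replicate 2 (adjusted p = 0.0567 to 0.0946). It was lost too with median scaling, no background correction (-0.35, adjusted p = 0.0756) or dim probes kept, and on the 4 brighter arrays (adjusted p = 0.136). Cxcl11 was detected on 0 arrays, and Cxcr3 on 1 miR-21 KO array only.

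Cxcl9 and Cxcl10 are close neighbours on chromosome 5, and the 250 bases before their start sites are shown because they fell together and their promoters are the classic meeting point of interferon and NF-kB signals. Sequences are from RefSeq (GRCm38.p6), both on the minus strand, at chr5:92328080-92328329 for Cxcl9 and chr5:92348890-92349139 for Cxcl10. Capitals mark matches, on either strand, to the interferon response element letters TTTCNNTTT or the NF-kB letters GGGANNNCC. Only these letters were searched. Interferon or NF-kB sites of other lengths or letters stay in lower case and are not counted, so the marks are no full map of sites.
Cxcl9: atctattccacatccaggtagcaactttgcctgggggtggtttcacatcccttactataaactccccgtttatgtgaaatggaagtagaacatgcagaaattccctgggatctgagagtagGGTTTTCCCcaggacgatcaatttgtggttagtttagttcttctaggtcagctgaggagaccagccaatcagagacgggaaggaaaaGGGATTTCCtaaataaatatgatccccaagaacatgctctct
Cxcl10: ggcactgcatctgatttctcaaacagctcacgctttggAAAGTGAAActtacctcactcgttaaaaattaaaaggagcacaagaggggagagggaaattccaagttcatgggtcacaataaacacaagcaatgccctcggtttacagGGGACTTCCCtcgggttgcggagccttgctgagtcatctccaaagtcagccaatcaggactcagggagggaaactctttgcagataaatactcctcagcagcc

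The Cxcl10 window holds 1 interferon element match, AAAGTGAAA, starting 212 bases before the start site. It also holds 2 NF-kB matches, GGGACTTCC and GGACTTCCC, which overlap each other on opposite strands, from 103 bases before it. The Cxcl9 window holds 2 NF-kB matches, GGTTTTCCC at 129 bases and GGGATTTCC at 42 bases before the start site, and 0 matches to the interferon element letters. The interferon and NF-kB matches share 0 bases. Of 32851 promoter windows of this length, 9.37 percent held the interferon letters and 15.8 percent the NF-kB letters. Windows were matched for 21 of the 30 tested member genes. Of these, 4 held the interferon letters (Ccl19, Ccl28, Cxcl10 and Cxcl14) and 6 the NF-kB letters (Ccl17, Ccl19, Ccr6, Cxcl10, Cxcl13 and Cxcl9). The member counts are of genes and the percentages are of windows, so they are not in the same unit. A match describes letters in the window and says nothing of binding.

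Of the inflammatory CC ligands, Ccl5 and Ccl9 fell and the other 6 of 8 tested probes did not pass. Ccl5, made by T cells and NK cells, read 5.37, 5.23 and 5.20 in miR-21 KO samples, against 6.62, 6.23 and 6.97 in WT samples. The lowest WT array was well above the highest miR-21 KO array, and Ccl5 was 2.52-fold lower (-1.33 ± 0.19, adjusted p = 0.00515). Ccl9, a myeloid chemokine known in mice as a Ccr1 ligand, read 8.46, 8.61 and 9.06 in miR-21 KO samples, against 9.82, 9.21 and 9.87 in WT samples, 1.90-fold lower (-0.93 ± 0.22, adjusted p = 0.026). The gap between the groups was narrow for Ccl9, and its call was lost without miR-21 KO replicate 1 or 2 or WT replicate 1 or 3 (adjusted p = 0.0809 to 0.0965), with no filter on dim probes (adjusted p = 0.0769) and on the 4 brighter arrays (adjusted p = 0.0555).

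Ccl6, also a Ccr1 ligand in mice and the direct neighbour of Ccl9 on chromosome 11, did not follow it. It read 9.04, 9.40 and 9.60 in miR-21 KO samples, against 9.21, 9.45 and 9.11 in WT samples, with a difference of 0.09 and a 95% interval from -0.31 to 0.49. Ccl4, made by activated lymphocytes and macrophages, read 4.96, 5.05 and 5.22 in miR-21 KO samples, against 5.99, 5.11 and 6.40 in WT samples (-0.76 ± 0.28, adjusted p = 0.101). It was -1.12 without WT replicate 2 (adjusted p = 0.00835) and -0.47 without WT replicate 3 (adjusted p = 0.269). WT replicate 2 lay among the miR-21 KO arrays once more. The other Ccl4 probe, and those of Ccl2 and Ccl3, were detected on 2 WT arrays and 0 miR-21 KO arrays, too few to be tested. The monocyte chemokine Ccl7 had -0.77 ± 0.26 (adjusted p = 0.0781, and 0.03 without miR-21 KO replicate 3). Its difference ran from -1.03 to -0.56 when 1 array was left out. Ccl17, a Ccr4 ligand, had -0.43 ± 0.15 (adjusted p = 0.0811 by limma). The eotaxin gene Ccl11 overlapped between groups on both probes, at -0.21 ± 0.23 and -0.30 ± 0.19 (adjusted p = 0.578 and 0.304).

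Beside the inflammatory CC ligands, macrophage and monocyte markers averaged 7.50, 7.62 and 7.95 in miR-21 KO samples, against 8.32, 7.93 and 8.46 in WT samples. Aif1 and Tyrobp fell, 2 of 8 tested, where 4 were lower and 0 higher at an unadjusted p under 0.05 by limma. Among those that did not pass, Cd68 had 0.00 ± 0.15. Of 3 tested markers of cytotoxic and NK cells, a source of Ccl5, Nkg7 and Klrd1 fell and Prf1 did not pass (0.33 ± 0.27, adjusted p = 0.436), with list means of 5.70, 5.85 and 6.35 in miR-21 KO samples, against 6.93, 6.65 and 6.66 in WT samples; Gzmb and Klrk1 were detected on 0 arrays. The part of these cells in the Ccl5 and Ccl9 differences was not tested.

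Cxcl1, a neutrophil chemokine that acts through Cxcr2, read 6.42, 7.55 and 6.74 in miR-21 KO samples, against 7.73, 7.42 and 7.53 in WT samples. miR-21 KO replicate 2 was within the WT range, and the difference of -0.66 ± 0.26 did not pass (adjusted p = 0.118, and 0.0365 without miR-21 KO replicate 2). Without miR-21 KO replicate 1 the difference was -0.41 (adjusted p = 0.316 by limma). Cxcl2 and Cxcl3, which share this receptor, and Cxcr2 itself, which the deposited table lists as Il8rb, were detected on 0 arrays. Neutrophil markers averaged 4.75, 5.64 and 5.74 in miR-21 KO samples, against 5.93, 7.44 and 6.64 in WT samples, and 0 of 3 tested passed with limma, where 3 were lower at an unadjusted p under 0.05. Cxcl4, now named Pf4, a platelet factor that macrophages can also make, had -0.63 ± 0.24 (adjusted p = 0.109, and 0.0196 without miR-21 KO replicate 3). Without miR-21 KO replicate 1 its difference was -0.38 (adjusted p = 0.291 by limma).

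**Figure D3:**
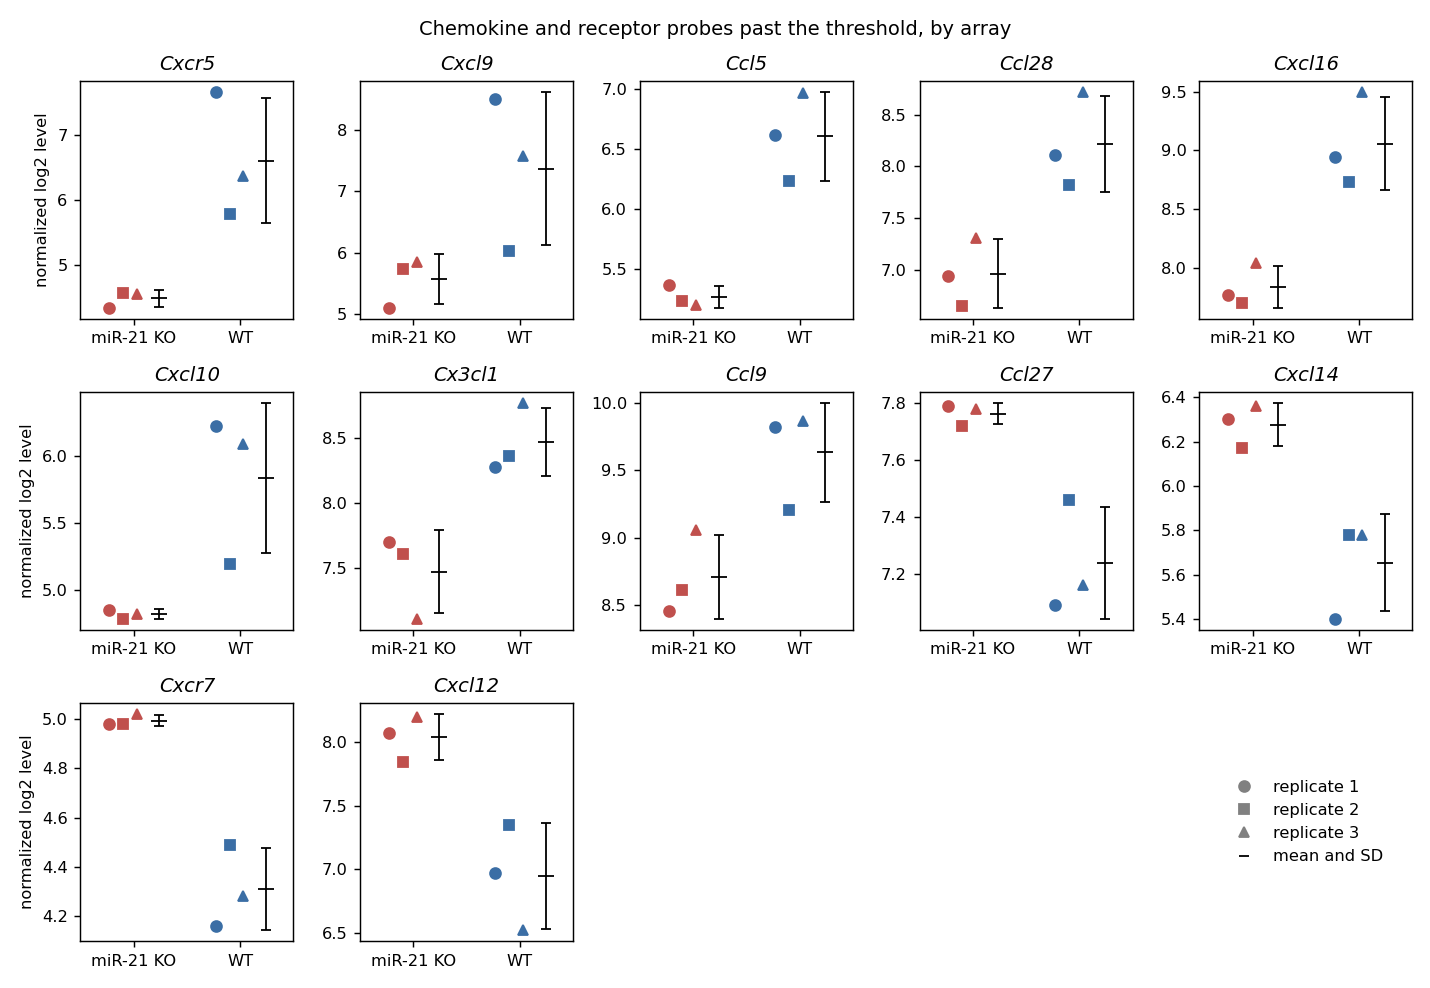
Normalized log2 level on each array for 12 of the 13 member probes past the threshold, miR-21 KO left of WT, with mean and SD (n = 3 each) and a scale of its own for each panel. In every panel the miR-21 KO arrays lie wholly below or wholly above the WT arrays; WT spread is wide for Cxcl9 and Cxcr5 and narrow for Ccl27.

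Of the 13 called genes, 5 had further tested probes, 7 in all; these kept the direction of the main probe and none passed the threshold by limma. The called probe of Cxcl9 had the adjusted p nearest to the threshold from inside (0.0447), and those of Cxcr4 and Ccr6 the nearest from outside (0.0519). In all, 10 member probes had an adjusted p between the threshold and 0.1, 8 of them lower in miR-21 KO.

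Ligands were paired with receptors over 28 pairs of known partners. Both sides were tested in 7 pairs, only the ligand in 14, only the receptor in 1, and neither in 6. Ligand and receptor both fell in 0 of these pairs, and both passed as higher in 1, Cxcl12 with Cxcr7, where Cxcr7 was detected on 0 of 3 WT arrays and lost its call in 6 of 16 alternatives. In the Cxcl13 and Cxcr5 pair the receptor fell and the ligand missed the threshold. Signs differed in 2 pairs, Cxcl12 (1.09) with Cxcr4 (-0.77) and Cx3cl1 (-1.0) with Cx3cr1 (0.36), where the ligand passed and the receptor did not. The 3 pairs of Ccr7 with Ccl19, Ccl21a and Ccl21c had lower values on both sides and no call. Of the lower ligands, Cxcl9, Cxcl10, Cxcl16, Ccl28 and Ccl9 had receptors that were not tested.

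**Figure D4:**
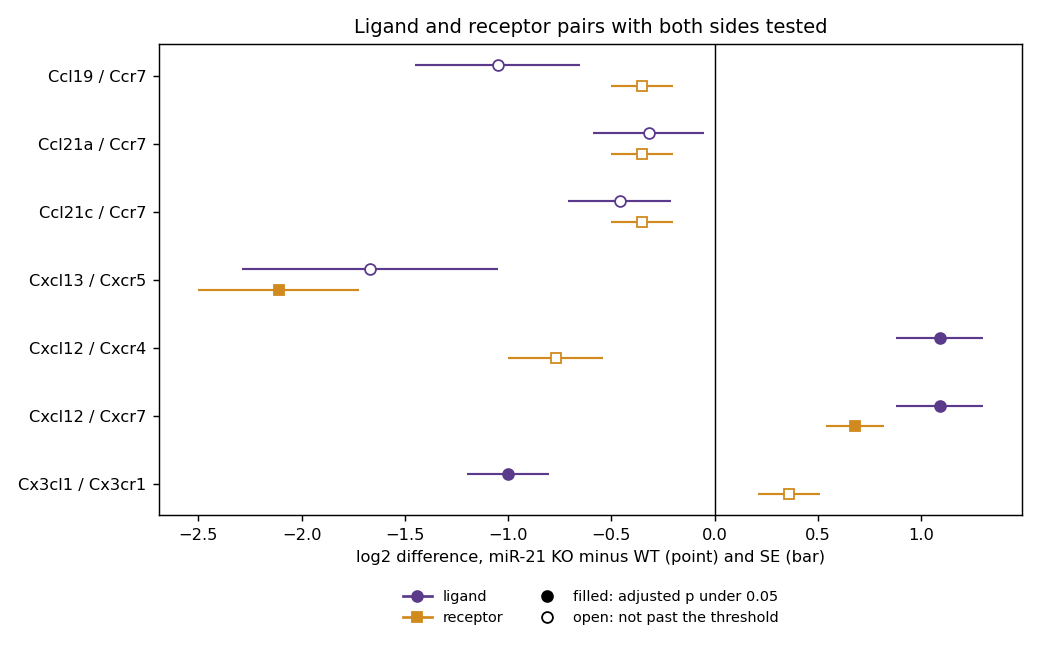
Log2 difference, miR-21 KO minus WT, with SE, for the ligand (circle) and the receptor (square) of the 7 pairs with both sides tested; filled symbols passed the threshold. Cxcl12 lies right of 0 with Cxcr7 and opposite to Cxcr4, and Cx3cl1 lies opposite to Cx3cr1.

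The other 27 member probes were detected on fewer than 3 arrays, 19 of them on 0 arrays, and were not tested. They leave 12 ligands and 11 receptors with no tested probe. Of the ligands, Ccl1, Ccl20, Ccl22, Ccl26, Cxcl2, Cxcl3, Cxcl11, Cxcl15 and Cxcl17 were detected on 0 arrays and Ccl2, Ccl3 and Ccl24 on 2 arrays each. Of the receptors, Ccr1, Ccr1l1, Ccr2, Ccr3, Ccr4, Ccr8, Cxcr6 and Xcr1 were detected on 0 arrays, Ccr9 and Cxcr3 on 1 and Ccr10 on 2. A probe that is not detected gives no level and does not show that the gene is silent. Dendritic cells, which carry Xcr1 and Ccr7, were as poorly measured: Itgax, Flt3, Zbtb46 and Clec9a were detected on 0 arrays, and 0 of 1 tested marker passed with limma, also at an unadjusted p under 0.05.

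Many CC chemokines share chromosome 11 with the deleted gene Mir21a. Of 12 member genes there, 9 probes for 8 genes were tested, and 3 fell (Ccl5, Ccl9 and Cxcl16) with 0 higher. Elsewhere 31 probes were tested, with 6 lower and 4 higher. Over all tested probes of chromosome 11, 8.01 percent fell. Within the cluster that holds Ccl5, Ccl9, Ccl6, Ccl3 and Ccl4 in this order, Ccl5 and Ccl9 fell, Ccl6 and Ccl4 did not pass, and Ccl3 was not tested.

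Genes that act with chemokines were read from lists. Of 5 tested genes of the system whose symbols the rule does not match, 0 passed with limma, and 2 were higher at an unadjusted p under 0.05. The atypical receptors Ackr1, Ackr2 and Ackr4 had 0.57 ± 0.18, -0.30 ± 0.15 and 0.72 ± 0.31 (adjusted p = 0.0658, 0.201 and 0.145). In the receptor signalling list 2 of 16 fell, Rac2 (-1.30 ± 0.32, adjusted p = 0.0282), a leukocyte GTPase of migration, and the kinase gene Ptk2b (-0.68 ± 0.15, adjusted p = 0.0196). Pik3cg, the lipid kinase downstream of chemokine receptors, rose (0.95 ± 0.20, adjusted p = 0.0168), as did the G protein subunit Gnb2 (0.53 ± 0.14, adjusted p = 0.035). The median of this list was 0.06.

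Of 12 tested homing and adhesion genes 2 fell and 0 rose (median -0.22). Of these, Vcam1, a ligand of lymphocyte integrins, had -1.45 ± 0.31 (adjusted p = 0.0186). The gut addressin Madcam1 had -0.18 ± 0.19 (adjusted p = 0.552) and the gut-homing integrin Itgb7 -0.40 ± 0.18 (adjusted p = 0.166). Of 6 tested genes that process chemokines, the protease Ctss fell (-0.80 ± 0.23, adjusted p = 0.0462), Mmp2 rose (0.82 ± 0.20, adjusted p = 0.0275), and Dpp4, which trims several chemokines, had -0.16 ± 0.19 (adjusted p = 0.584). The share called in either direction was 15.1 percent over all tested probes.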

How the data were processed

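Colon mucosa RNA was measured on bead arrays, 3 miR-21 KO and 3 WT, grouped by the sample titles. Per the file headers, the authors deposited, for each probe and array, a linear mean intensity not normalized between arrays and a detection p-value; bead numbers and bead standard errors are other units of the deposited table. A second deposited table holds log2 values normalized by the authors and served as an alternative; it correlated at r of at least 0.9998 with the values computed here. Limma is the tool that the submitters' processing notes list, without its role.

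R 4.3.3 with limma 3.58.1 and statmod 1.5.0 was used. Normalization was by neqc, with negative controls inferred from the detection p-values, an offset of 16, quantile normalization and log2. Probes with a detection p-value under 0.05 on at least 3 of 6 arrays (13737 of 25697) went into lmFit and eBayes for the difference of miR-21 KO from WT with no covariate; p-values are two-sided and Benjamini-Hochberg adjusted over all of them. "Rose" and "fell" mean an adjusted p under 0.05. The fit was tested on simulated data. Median intensity was 97 to 115 and 50.4 to 54.6 percent of probes were detected; the number of arrays limits the precision.

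Counts cover all tested members, of which 1 gene and its pairs are not reported here, nor are some genes of the lists. The other tested members are all named, and where a gene has several probes, that of highest mean level leads. From the lists of other genes, those past the threshold and a few with a known role in the colon, chosen after their values were seen, are named. Symbols were updated through RefSeq (GRCm38.p6), which was used for names, chromosomes, neighbours, the microRNA sequence and the promoter windows. Members, lists, pairs and alternatives were chosen with earlier results of these data known, and the motifs after the values were seen.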

Additional observations from a re-analysis of the deposited data

How the results depend on the processing

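The fit was repeated under 17 alternatives. Of the 40 tested member probes, 38 kept their sign in every alternative that tested them. Ccl11 (main probe) turned to 0.02 without miR-21 KO replicate 2 (-0.37 to 0.02 when 1 array was left out), and Ccl6 to -0.04 without miR-21 KO replicate 3 (-0.04 to 0.24) and to -0.11 on the 4 brighter arrays, none of these called. Of the 13 called probes, 2 (Ccl5 and Cxcl16) stayed past the threshold in all 17. The count of members lower (9) was 5 with no background correction, 3 with no filter on dim probes (more probes tested), 21 with array weights, and 4 to 17 when 1 array was left out. The count higher (4) was 0 with median scaling and 0 on the 4 brighter arrays by limma, where 6 and 7 were higher at an unadjusted p under 0.05, and 1 to 4 when 1 array was left out. Over all probes the count (2071) was 536 with median scaling, 3772 with array weights, 839 on the 4 brighter arrays, and 460 to 2116 when 1 array was left out. Median scaling gave 193 higher and 343 lower, beside 1034 and 1037. By the labels, same-numbered samples share only a number (correlations of deviations 0.01, 0.15 and 0.06). Replicate 3 was the dimmest array of each group (median intensity 98.3 in miR-21 KO and 97 in WT, beside 108.2 to 115). The 4 brighter arrays leave out these replicate 3 arrays. A replicate block called 15 members lower, 5 higher and 2154 probes in all. The cause of these shifts was not tested. Members near background, such as Ccl19, Ccr7, Cxcr7 and Xcl1, have levels that signal over background limits.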
